A study of Mus musculus with 4 samples.

Results

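The Schlafen genes Slfn1, Slfn2, Slfn4, Slfn5, Slfn8 and Slfn9 were examined in leukemia stem cells (LSCs) with and without CD37. They were listed by name, all 6 were found among the 17104 genes of the expression table, and the list was drawn up with the differences between these same libraries already known. The values of the members in this comparison are therefore given as a description, without a test. CD37 is a tetraspanin of leukocytes, and LSCs are the leukemia cells that propagate the disease when transplanted. Poly(A) RNA of LSCs from the bone marrow of male C57 mice, sorted as YFP+, c-kit+ cells 6 weeks after a secondary transplantation, was sequenced from 2 CD37 fl/fl and 2 CD37 -/- libraries. Per the study's methods, the leukemia of both groups came from lineage-negative bone marrow cells of CD37 fl/fl, Rosa26-CreERT2 mice that were transduced with MLL-AF9 and YFP and given to sublethally irradiated mice. The groups differ in what the recipients of this primary transplantation received. This was tamoxifen in CD37 -/-, to activate the Cre and delete exons 4 to 5 of Cd37, or corn oil in CD37 fl/fl. The methods name no such treatment for the secondary recipients. The effect of tamoxifen cannot be told apart from that of the deletion. The labels do not say whether the 2 libraries of a group come from separate mice, and any spread or p-value given here measures only the spread between these libraries, which may be technical.

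Schlafen proteins are regulators of growth and of translation in hematopoietic and immune cells, and several of their genes are induced by type I interferon. In mice they are grouped by length: a short group with Slfn1 and Slfn2, an intermediate group with Slfn3 and Slfn4, and a long group with Slfn5, Slfn8 and Slfn9, whose C-terminal part resembles a helicase. Slfn2 is known for keeping T cells and monocytes quiescent and for protecting tRNA from cleavage, and Slfn4 is known from myeloid cells, in which interferon and Toll-like receptor ligands induce it.

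All 6 genes lie in 1 cluster of 344 kb on chromosome 11 that holds 10 annotated Schlafen genes (GENCODE M21, GRCm38). From the first base onwards the members are Slfn5 (chr11:82951349-82964840, plus strand), Slfn9 (chr11:82978390-82991830, minus strand), Slfn8 (chr11:83002158-83020810, minus strand), Slfn2 (chr11:83065112-83070678, plus strand), Slfn1 (chr11:83116849-83122670, plus strand) and Slfn4 (chr11:83175186-83190216, plus strand). Coding lengths followed the groups, with 337 codons in Slfn1, 378 in Slfn2, 602 in Slfn4, 884 in Slfn5 and 910 in both Slfn8 and Slfn9. The closest pair of members was Slfn8 and Slfn9, whose coding sequences were identical at 92.7% of aligned bases. Slfn4 was as close to Slfn3, a neighbour in the cluster, with 92.7%, against 75.9% for Slfn4 and Slfn2, 74.9% for Slfn4 and Slfn1 and 71.7% for Slfn1 and Slfn2. Reads from such copies can be split or lost in counting. Of all 50-base stretches in the transcripts, 14.6% of those of Slfn8, 11.5% of Slfn9 and 10.8% of Slfn4 also occurred in other genes, mainly Slfn10-ps and each other for Slfn8 and Slfn9, and Slfn3 for Slfn4. This share was 0.606% for Slfn1, 4.27% for Slfn2 and 3.37% for Slfn5. An antisense gene, Slfn5os, overlaps 8.84% of the exon bases of Slfn5, and whether the counting used the strand is not given in the sources used here.

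The sequences before the transcription starts are shown in 2 sets, the short and intermediate members in one and the long members in the other. This grouping was set by hand, and a shared stretch was sought only for the first set. For each member 60 bases are shown (RefSeq starts, GRCm38.p6, written 5′ to 3′ along the gene). In Slfn1 (chr11:83116722-83116781, plus strand), Slfn2 (chr11:83065033-83065092, plus strand) and Slfn4 (chr11:83175089-83175148, plus strand), the capitals mark the longest stretch that all 3 share within 250 bases of the start. In Slfn5 (chr11:82951923-82951982, plus strand), Slfn8 (chr11:83020823-83020882, minus strand) and Slfn9 (chr11:82991840-82991899, minus strand), they mark the core of the interferon-stimulated response element, on the opposite strand in Slfn8 and Slfn9. Unlike those of the other members, the Slfn5 window lies inside its GENCODE M21 gene (chr11:82951349-82964840). The Slfn5 stretch is therefore upstream of the RefSeq start only.
Slfn1: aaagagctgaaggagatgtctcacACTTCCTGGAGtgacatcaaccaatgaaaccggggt
Slfn2: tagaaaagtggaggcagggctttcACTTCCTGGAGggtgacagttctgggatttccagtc
Slfn4: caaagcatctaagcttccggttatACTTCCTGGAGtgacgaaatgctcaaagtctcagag
Slfn5: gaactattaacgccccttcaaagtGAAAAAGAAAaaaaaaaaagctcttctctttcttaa
Slfn8: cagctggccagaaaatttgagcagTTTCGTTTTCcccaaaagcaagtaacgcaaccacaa
Slfn9: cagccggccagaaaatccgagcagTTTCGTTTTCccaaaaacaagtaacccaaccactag

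The stretch ACTTCCTGGAG begins 74, 55 and 73 bases before the start of Slfn1, Slfn2 and Slfn4, and 20 of 32851 promoters (0.0609%) hold it on either strand. It was chosen after the sequences were seen. Its first letters are the reverse complement of GGAAGT, a core bound by ETS factors, which alone occurs in 19.7% of promoters. The response element core, searched as GAAANNGAAA on both strands, begins 155, 48 and 45 bases before the start of Slfn5, Slfn8 and Slfn9 and occurs in 2.98% of promoters. These letters were not found in the windows of Slfn1, Slfn2 and Slfn4, and the gamma-activated site TTCNNNGAA, which 7.02% of promoters hold, was in none of the 6. Such matches describe the sequence and not binding. Slfn8 has 2 starts in RefSeq, of which the first listed was used.

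The deposited values are FPKM, in which the kilobases turned out to be those of the whole gene, introns included. To compare genes with each other, the reads implied by the FPKM were divided by exon length instead (reads per kb of exon, scaled by the library total), and this is called the level here. Differences between groups are on the log2(FPKM + 1) scale, on which low genes show less change than on a ratio. The implied totals were 15139063 and 17252340 reads for CD37 fl/fl, then 17638604 and 22562837 for CD37 -/-, and each member had between 107 and 12874 reads, so that counting error was small beside the gaps between replicates. Cd37 itself had an FPKM of 56.6 and 46.8 in CD37 fl/fl, against 23.2 and 22.9 in CD37 -/-, so transcripts that map to the gene remained. Of the sorting and leukemia markers, Kit had 213 to 804 reads and Hoxa9 had an FPKM of 38.8 to 47.2. The CD37 fl/fl libraries stood apart from each other. The summed level of 22 myeloid differentiation genes was 55151 in replicate 1 and 11491 in replicate 2, against 47115 and 30548 in CD37 -/-. Most of each sum was S100a8 and S100a9, which had levels of 17666 and 29924 in CD37 fl/fl replicate 1. Erythroid markers had summed levels of 124 and 49.0 in CD37 fl/fl, against 969 and 287 in CD37 -/-.

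Slfn4, the intermediate member of myeloid cells, had the largest difference of the 6. Its level was 11.6 and 6.04 in CD37 fl/fl (8.82 ± 3.93, SD, n = 2) and 52.4 and 144 in CD37 -/- (98.2 ± 64.7, SD, n = 2). Both CD37 -/- libraries were above both CD37 fl/fl libraries, with an 11.1-fold higher mean and a log2 difference of 2.89 (standard error 0.49). The 2 CD37 -/- libraries themselves differed by 2.74-fold. Without 1 library at a time the log2 difference was between 2.19 and 3.59. Slfn3, its nearest relative, had an FPKM between 0.189 and 0.245 in the 4 libraries, with overlapping groups.

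Slfn2, the short member that keeps T cells and monocytes quiescent, was also higher in CD37 -/- without overlap. Its level was 17.0 and 5.29 in CD37 fl/fl (11.1 ± 8.27, SD, n = 2) and 28.6 and 51.4 in CD37 -/- (39.99 ± 16.1, SD, n = 2). That is a 3.59-fold higher mean and a log2 difference of 1.66 (standard error 0.46), which ranged from 1.05 to 2.27 without 1 library at a time.

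Slfn1, the other short member, differed less between the groups than between the CD37 fl/fl libraries. Its level was 44.4 and 11.6 in CD37 fl/fl (28.0 ± 23.2, SD, n = 2) and 35.5 and 49.9 in CD37 -/- (42.7 ± 10.2, SD, n = 2). CD37 fl/fl replicate 1 lay between the CD37 -/- libraries, and replicate 2 was 3.83-fold lower. The log2 difference of 0.78 (standard error 0.55) rested on that library, since it was -0.059 without CD37 fl/fl replicate 2 and 1.62 without replicate 1.

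The long members Slfn5 and Slfn8 overlapped between the groups. For Slfn5, whose human counterpart acts in the interferon response, the level was 8.56 and 2.24 in CD37 fl/fl (5.40 ± 4.47, SD, n = 2) and 3.19 and 11.3 in CD37 -/- (7.23 ± 5.72, SD, n = 2). The replicates of each genotype were 3.83-fold and 3.53-fold apart, more than the 1.34-fold gap between the group means. Its log2 difference of 0.31 (standard error 0.57) changed sign with 1 library, to -0.33 without CD37 fl/fl replicate 2 and -0.36 without CD37 -/- replicate 2. Slfn8 was the lowest member in 3 of the 4 libraries, at a level of 2.55 and 1.52 in CD37 fl/fl, against 1.91 and 6.86 in CD37 -/-. Only CD37 -/- replicate 2 stood above the other libraries for Slfn8, and without it the log2 difference went from 0.39 (standard error 0.34) to -0.02.

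Slfn9 was the one member lower in CD37 -/-. Its level was 5.74 and 8.04 in CD37 fl/fl (6.89 ± 1.63, SD, n = 2) and 3.64 and 5.11 in CD37 -/- (4.38 ± 1.04, SD, n = 2). The groups did not overlap, the ratio of the means was 0.635 and the log2 difference was -0.46 (standard error 0.22), between -0.64 and -0.27 without 1 library at a time. A rescaling of all libraries to 1 sum (TPM) moved the median of all tested genes from 0.11 to 0.49 and quantile normalization moved it to -0.02. The 5 members in the fit kept their signs under both, with Slfn9 at -0.24 and -0.65 and Slfn5 at 0.76 and 0.13.

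**Figure D1:**
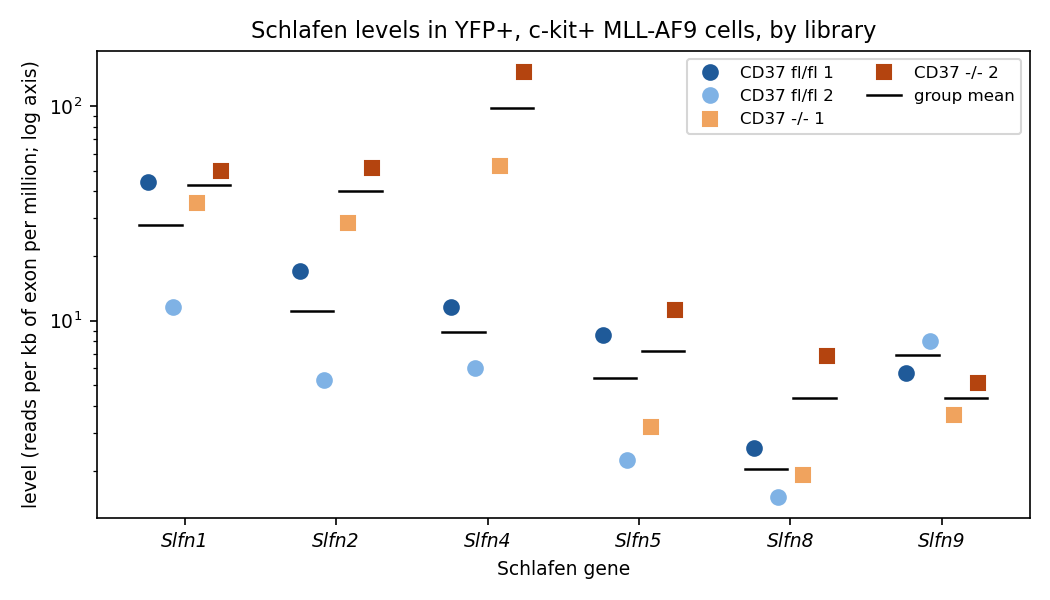
Level of the 6 Schlafen genes in each library (reads per kb of exon, scaled by the library total, log axis), with circles for CD37 fl/fl, squares for CD37 -/- and bars for the group means of 2 libraries. The squares of Slfn2 and Slfn4 lie above both circles, those of Slfn9 lie below both, and the other 3 genes overlap.

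**Figure D2:**
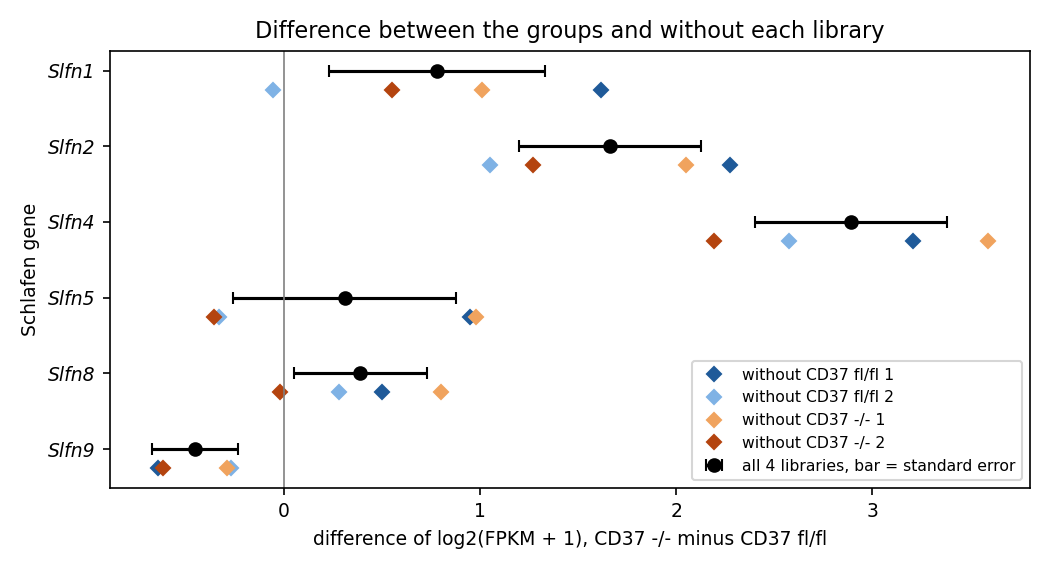
Difference of log2(FPKM + 1) between CD37 -/- and CD37 fl/fl for each gene (black, with the standard error from limma) and the same difference without each library in turn (diamonds). Slfn2 and Slfn4 stay above 0 and Slfn9 below 0 in each case, while Slfn1, Slfn5 and Slfn8 have diamonds on both sides of 0.

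Only 5 members averaged 1 FPKM or more and entered the fit across 6761 genes, while Slfn8 did not. Of these 5, Slfn2 and Slfn4 were higher without overlap between the groups, which 38.2% of tested genes were, and Slfn9 was lower without overlap, as were 23.7%. With Benjamini-Hochberg adjustment in limma, 0 of the 6761 tested genes (0.0%) had a p under 0.05. Since these differences took part in the choice of the members, nothing is read from these counts.

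The order of the members changed with the genotype at its upper end. Slfn1 had the highest level in both CD37 fl/fl libraries, with 49.4% and 33.4% of the summed level of the 6 genes. The gap between its group mean there and that of Slfn2 (28.0 and 11.1) was smaller than the SD of Slfn1 (23.2). In CD37 fl/fl replicate 2 the level of Slfn1 was 11.6, against 8.04 for Slfn9. Slfn4 had the highest level in both CD37 -/- libraries, with 41.9% and 53.6%, against 12.9% and 17.4% in CD37 fl/fl. Slfn1 and Slfn2 came next in CD37 -/- and exchanged places between its libraries, their group means of 42.7 and 39.99 differing by less than either SD. In CD37 fl/fl the places from Slfn2 to Slfn9 differed between the libraries as well, and neighbours there did not differ beyond their spread. Slfn4 exceeded Slfn1 in both CD37 -/- libraries, but the gap between their group means (98.2 and 42.7) was smaller than the SD of Slfn4. The long members Slfn5, Slfn8 and Slfn9 held 1.53% to 4.20% of the sum each in CD37 -/-, and their places also changed between its libraries. The summed level of the 6 was 89.8 and 34.7 in CD37 fl/fl, against 125 and 268 in CD37 -/-. RNA of the whole sorted population was measured, so fewer cells with a transcript and less of it per cell cannot be told apart.

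Of the other Schlafen genes, none reached a mean FPKM of 1. Slfn3 had 69 to 118 reads per library and the pseudogene Slfn10-ps had 3 to 25. Slfnl1, a Schlafen-like gene outside the cluster, had at most 1 read per library. Slfn14 and Slfn5os were not analysed here.

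The members also varied together within each genotype. CD37 fl/fl replicate 1 was above replicate 2 for 5 of the 6 genes, by 1.68-fold (Slfn8) to 3.83-fold (Slfn5), with Slfn9 the exception at a ratio of 0.714. CD37 -/- replicate 2 was above replicate 1 for all 6 genes, by 1.40-fold (Slfn9) to 3.59-fold (Slfn8). Of all tested genes, 38.8% were higher in CD37 fl/fl replicate 1 than in replicate 2. In CD37 -/-, 50.9% were higher in replicate 2 than in replicate 1. Of the 5 tested members, 4 were in both of these sets, as were 19.7% of all tested genes. The directions were those that the members show, so nothing is read from their share. The interferon-stimulated genes varied in the same directions. Of 24 tested, 20 were higher in CD37 fl/fl replicate 1 than in replicate 2, 22 were higher in CD37 -/- replicate 2 than in replicate 1, and 19 (79.2%) were both. Their summed level was 1288 and 519 in CD37 fl/fl, against 1224 and 1910 in CD37 -/-. All 18 tested myeloid differentiation genes were higher in CD37 fl/fl replicate 1, and 12 were higher in CD37 -/- replicate 2. The part of myeloid differentiation or of interferon in the gaps between replicates was not tested.

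**Figure D3:**
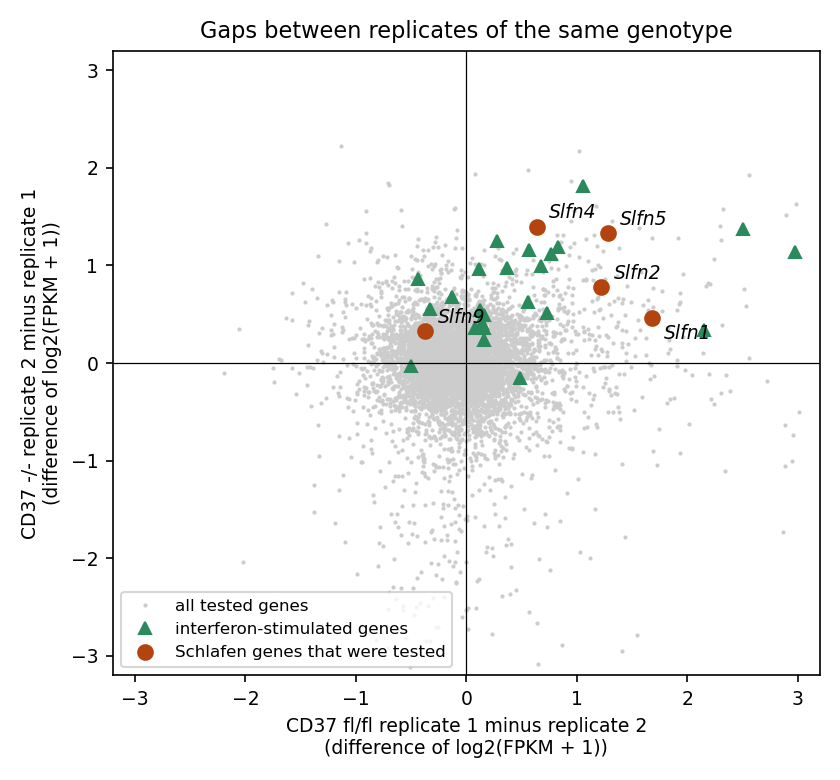
Gaps between the 2 libraries of each genotype for the tested genes, as differences of log2(FPKM + 1), with CD37 fl/fl on the horizontal and CD37 -/- on the vertical axis (12 of 6761 genes lie outside the axes). Slfn1, Slfn2, Slfn4 and Slfn5 lie in the upper right part with 19 of the 24 interferon-stimulated genes, and Slfn9 lies to the left of 0.

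Interferon-stimulated genes were next compared between the groups, since several Schlafen genes belong to the interferon response. Of 44 listed, 41 were in the table and 24 were tested, of which 21 were higher and 3 lower in CD37 -/-, with a median log2 difference of 0.76 against 0.11 for all tested genes (1.48 against 0.49 after TPM rescaling and 0.52 against -0.02 after quantile normalization). Unadjusted p-values under 0.05 in limma were found for 8, all higher, namely Cmpk2, Gbp3, Ifitm3, Isg20, Oas2, Oas3, Oasl2 and Samd9l, while 16.1% of all tested genes had such a p and were higher and 7.96% were lower. None passed after Benjamini-Hochberg adjustment in limma (smallest adjusted p = 0.105). The number of 8 rested on single libraries, with 4 without CD37 fl/fl replicate 2, 4 without CD37 -/- replicate 2 and 13 without CD37 -/- replicate 1. It was 13 after TPM rescaling, 22 with limma-voom on the implied reads and 2 when a mean of 5 FPKM was required. Over all 41 genes, tested or not, 25 were higher without overlap and 2 were lower without overlap, against 37.1% and 17.5% of all genes in the table.

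Ifitm3, which blocks the entry of viruses, had the largest difference among them, with an FPKM of 244 and 54.2 in CD37 fl/fl, against 338 and 429 in CD37 -/- (log2 difference 1.71, standard error 0.69). Isg20, an exonuclease for RNA, had an FPKM of 1.92 and 0.761 in CD37 fl/fl, against 3.96 and 6.07 in CD37 -/- (log2 difference 1.38, standard error 0.31). In both genes, as in Slfn2 and Slfn4, CD37 fl/fl replicate 2 was the lowest library and CD37 -/- replicate 2 the highest. Ifitm1, a relative of Ifitm3, had an FPKM of 109 and 13.05 in CD37 fl/fl, against 72.3 and 160 in CD37 -/-, with overlapping groups as in Slfn1. Bst2, which tethers virus particles to the cell, had an FPKM of 46.7 and 41.7 in CD37 fl/fl, against 32.6 and 38.6 in CD37 -/- (log2 difference -0.31, standard error 0.25, and 0.066 after TPM rescaling).

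Upstream of these genes, 11 of 17 interferon receptor and signaling genes were tested, of which 8 were higher and 3 lower, with a median log2 difference of 0.11. This median was 0.049 to 0.36 with each library left out, 0.49 after TPM rescaling, 0.57 with limma-voom and 0.69 with the filter at 5 FPKM, and the calls at an unadjusted p went from 3 to 1 without CD37 fl/fl replicate 2 and to 9 with limma-voom. Irf9, the DNA-binding part of the complex that acts on the interferon-stimulated response element, had an FPKM of 3.26 and 3.24 in CD37 fl/fl, against 7.44 and 11.8 in CD37 -/- (log2 difference 1.29, standard error 0.25, limma with Benjamini-Hochberg adjusted p = 0.0893). Irf7, which amplifies type I interferon, had an FPKM of 9.92 and 4.16 in CD37 fl/fl, against 12.5 and 31.7 in CD37 -/- (log2 difference 1.49, standard error 0.53). Irf3, which starts the interferon response, went the other way, with 27.3 and 26.7 in CD37 fl/fl, against 18.5 and 14.3 in CD37 -/- (log2 difference -0.69, standard error 0.24). The unadjusted limma p of each of these 3 was under 0.05, with values of 0.00248, 0.0326 and 0.0296. The receptor gene Ifngr1 had an FPKM of 20.98 to 23.6 in the 4 libraries.

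Growth arrest and quiescence genes were included because Slfn1 and Slfn2 are known as regulators of growth. The list also holds genes that promote or mark cycling (Ccnd1, Ccnd2, Ccnd3, Myc and Mki67). Its counts and median mix both kinds and are not a measure of arrest. The table held 16 of the listed genes and 11 were tested, with 8 higher and 3 lower. The median log2 difference was 0.60, and 0.17 without CD37 fl/fl replicate 2. It was 1.03 after TPM rescaling, and 0.050 with all genes above 0, 0.10 with exon length, 0.11 with the filter at 5 FPKM and 0.13 with limma-voom. At an unadjusted limma p under 0.05, 3 were higher (Cdkn1b, Cdkn2c and Tob1) and 1 was lower (Klf2), and the smallest adjusted p (Benjamini-Hochberg) was 0.0502. Cdkn1b, the cyclin-dependent kinase inhibitor p27, had an FPKM of 3.87 and 2.29 in CD37 fl/fl, against 10.9 and 11.01 in CD37 -/- (log2 difference 1.58, standard error 0.25). For Cdkn2c, the inhibitor p18, the FPKM was 6.15 and 5.11 in CD37 fl/fl, against 18.9 and 31.3 in CD37 -/- (log2 difference 1.94, standard error 0.30). Klf2, a transcription factor of quiescent T cells, had 194 and 143 in CD37 fl/fl, against 32.03 and 35.7 in CD37 -/- (log2 difference -2.27, standard error 0.28). Mki67, a marker of cycling cells, had an FPKM of 24.2 to 27.4 in the 4 libraries.

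Genes of tRNA cleavage and repair, the process in which Slfn2 acts, gave 5 tested of 6 in the table, with 4 higher, 1 lower and a median log2 difference of 0.10 (0.32 without CD37 fl/fl replicate 1, 0.26 without CD37 -/- replicate 1, 0.48 after TPM rescaling and 0.43 with limma-voom). One had an unadjusted limma p under 0.05, Trnt1, which adds the CCA end to tRNA, with an FPKM of 0.660 and 1.38 in CD37 fl/fl, against 2.11 and 2.84 in CD37 -/- (log2 difference 0.80, standard error 0.24). Without CD37 fl/fl replicate 1 or CD37 -/- replicate 2 this call was lost, and the smallest adjusted p in the list was 0.143 (limma, Benjamini-Hochberg). Rnh1, the inhibitor of the tRNA-cleaving ribonuclease angiogenin, had overlapping groups with an FPKM of 11.9 to 17.4.

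The genes around the cluster were read to see whether the differences ended at its borders. Within 500 kb of the cluster 31 other genes were in the table and 18 were tested, of which 12 were higher and 6 lower, with a median log2 difference of 0.15 (0.47 without CD37 fl/fl replicate 1). Before the cluster, the nearest tested genes were Nle1 (log2 difference -0.05, standard error 0.22), Rad51d (0.18, standard error 0.17) and Lig3 (0.56, standard error 0.18). After it they included AA465934 (0.38, standard error 0.24) and Ap2b1 (-0.01, standard error 0.17). Nle1 and Ap2b1 changed sign with TPM rescaling, to 0.32 and 0.31. Of these 5 flanking genes only Lig3, a DNA ligase, had an unadjusted limma p under 0.05. Farther out, at 286 and 361 kb after the cluster, lay the tested flanking genes with the largest differences. These were Ccl9 (-1.05, standard error 0.49, lower without overlap) and Ccl3 (0.73, standard error 0.41, overlapping), neither with such a p.

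The other neighbour with such a p was AI662270, a noncoding transcript inside the cluster (chr11:83223576-83226604, plus strand), 8.42 kb from Slfn3 and 33.4 kb from Slfn4. Its FPKM was 1.31 and 1.35 in CD37 fl/fl, against 5.73 and 6.03 in CD37 -/-, with 61 and 71 reads against 308 and 413. Both CD37 -/- libraries were above both CD37 fl/fl libraries, and the replicates of each genotype were much closer than those of the members. Its log2 difference of 1.56 (standard error 0.17) had an adjusted p of 0.0502 (limma, Benjamini-Hochberg), the smallest of the fit, held by 37 genes. It shares exons on the same strand with the pseudogene Gm11427, whose FPKM was 0.822 and 1.14 in CD37 fl/fl, against 1.11 and 1.19 in CD37 -/-, so the division of reads between the 2 genes is uncertain. AI662270 was singled out after its values were seen.

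**Figure D4:**
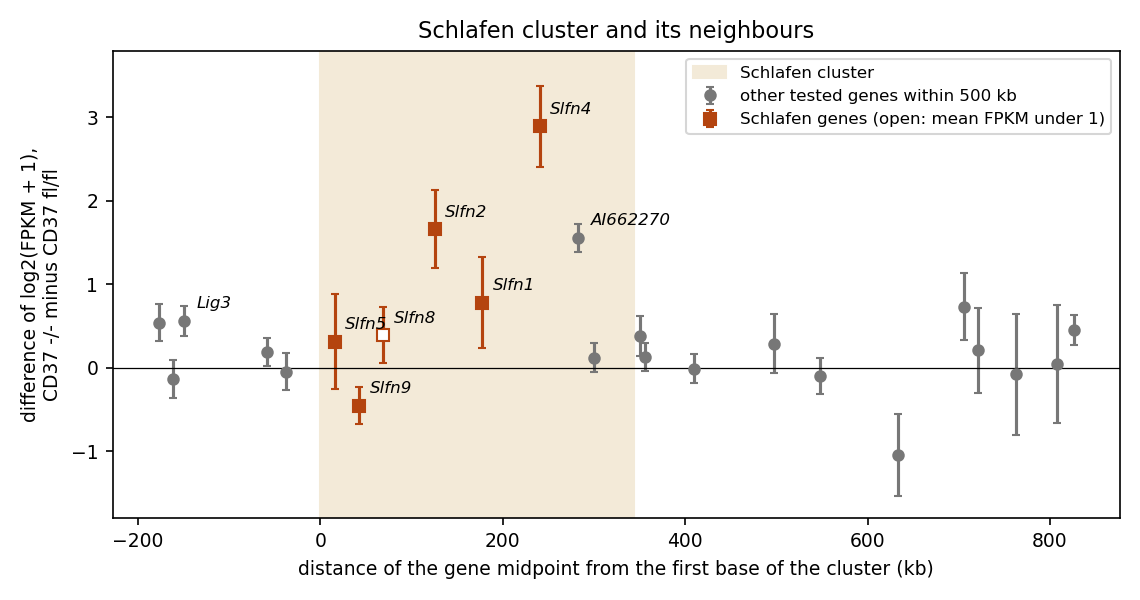
Difference of log2(FPKM + 1) between CD37 -/- and CD37 fl/fl, with standard errors from limma, for the Schlafen genes (squares) and the other tested genes within 500 kb (circles), by distance from the first base of the cluster in kb. Slfn4, Slfn2 and AI662270 stand highest within the shaded 344 kb, and the tested genes on either side lie between -1.05 (Ccl9) and 0.73 (Ccl3).

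The genes whose profile over the 4 libraries was most like that of Slfn4, by the Euclidean distance of centred log2(FPKM + 1) values, were the pseudogenes Mrip-ps (distance 0.87), Gm13991 (0.91) and Gm47021 (0.98), the eosinophil-associated ribonuclease gene Ear6 (1.08) and Ptbp1 (1.09), a regulator of splicing. Slfn4 was the member with both the highest mean FPKM and the largest difference. In all 5 the CD37 -/- libraries were above the CD37 fl/fl libraries, with replicate 2 the highest. This follows from their choice by likeness to Slfn4, and nothing is read from it.

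Markers of other cells were set beside the members. Erythroid markers were higher in all 5 tested genes, with CD37 -/- replicate 1 the highest in their summed level, while all 6 members were higher in CD37 -/- replicate 2 than in replicate 1. All 4 tested dendritic cell and macrophage markers were lower in CD37 -/-, but the groups overlapped in each. Their median log2 difference was -1.25, and -0.16 without CD37 fl/fl replicate 1. The list had summed levels of 1104 and 144 in CD37 fl/fl, against 56.4 and 187 in CD37 -/-. Of the 1104, Cd74 held 906. T and NK cell markers summed to 124 and 153 in CD37 fl/fl, against 53.3 and 53.8 in CD37 -/-. Of these, Nkg7 alone was tested and held most of the sum, with levels of 123 and 152 against 52.0 and 53.3. Cd3g was listed at 0 in both CD37 fl/fl libraries. B cell markers summed to 31.3 and 37.2 in CD37 fl/fl, against 20.8 and 16.2 in CD37 -/-. Most of this was Cd79b, the one tested, with levels of 30.3 and 36.9 against 19.3 and 14.8 (log2 difference -0.89, standard error 0.23). Of the 5 B cell markers in the table, 2 were higher without overlap and 1 was lower without overlap. Of all genes in the table, 37.1% and 17.5% were. Megakaryocyte markers summed to 5.63 to 21.02. The 9 tested genes listed for leukemia stem cell identity had a median log2 difference of 0.02, but they went in both directions. Without overlap, 2 were higher and 4 were lower, as were 38.2% and 23.7% of all tested genes. The largest differences were those of Mpo (-1.24, standard error 0.36), Hoxa10 (1.01, standard error 0.21) and Ctsg (-1.01, standard error 0.58). Mpo and Ctsg, like Elane and Prtn3 of the same list, are granule genes of early myeloid cells and not particular to stem cells. The 18 tested genes of myeloid differentiation had a median log2 difference of 0.35. This myeloid median turned to -0.28 without CD37 fl/fl replicate 2 and was 1.17 without CD37 fl/fl replicate 1. The part of such cells in the values of the members was not tested.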

How the data were processed

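The authors deposited FPKM values for 4 libraries, without a log and without pooling. The submitters' processing notes name fastp 0.20.1, STAR 2.7.7a, featureCounts 2.0.0, edgeR and the build mm39, with no role or order, and the paper's methods name limma. Positions and symbols are those of GENCODE M21 (GRCm38), to which 17045 of 17104 identifiers (99.7%) matched. With its gene spans, 98.9% to 99.0% of low values in each library came out as whole reads within 0.05 (chance 10.0%), against 9.72% to 10.3% with exon length. No coordinate was taken from mm39. Reads implied by the FPKM served for depth, levels and 1 alternative. Replicates differed by far more than counting error (chi-square per degree of freedom 93.4 in CD37 fl/fl and 61.0 in CD37 -/-).

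The 6761 genes that averaged 1 FPKM or more were fitted as log2(FPKM + 1) in limma 3.58.1 under R 4.3.3 (lmFit, then eBayes with its trend option), without a block, two-sided, with Benjamini-Hochberg adjustment over all of them and a threshold of 0.05. Slfn8 was read from a fit of all genes above 0. The code was tested on simulated data. The members and the lists (other Schlafen, interferon, growth arrest, tRNA, myeloid and cell type markers) were chosen with earlier results of these data known. Named genes are the members, the other Schlafen genes, the 3 highest and 3 most different tested genes of each list (not all of them printed), the 3 nearest tested neighbours on each side, Cd37 and the 5 genes most like Slfn4. A gene of this choice is not reported here. Genes named beside a count of calls come from that count. Promoters were searched in RefSeq sequences, and coding sequences were aligned with Biopython 1.88. Tables used Python 3.11.15, pandas 2.3.3 and numpy 2.4.6, and figures matplotlib 3.10.9.

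As alternatives, each library was left out in turn, the filter was dropped or raised to 5 FPKM, the pseudocount was lowered to 0.1, eBayes was run robustly or with no trend, and the replicate number was blocked. Values were also rescaled (TPM, quantile, upper quartile), recomputed with exon length, or replaced by the implied reads in limma-voom.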

Additional observations from a re-analysis of the deposited data

How the results depend on the processing

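With 2 libraries a group, a single library can set a member's difference, and reads shared between copies limit Slfn4, Slfn8 and Slfn9. Slfn2, Slfn4 and Slfn9 kept their sign in every alternative that gave them a value. The median log2 difference of the tested members (0.78) was 1.66 where a mean of 5 FPKM was required, since only members above that mean remain there, and went from -0.059 to 1.62 with each library left out, the lowest value without CD37 fl/fl replicate 2. Slfn8 went from 0.39 to 0.95 with limma-voom on the implied reads. The median of the interferon-stimulated genes (0.76) was 1.25 with a pseudocount of 0.1, 0.16 with the filter at 5 FPKM, 1.48 with TPM rescaling and 1.43 with limma-voom, and ranged from 0.29 (without CD37 -/- replicate 2) to 1.197 (without CD37 -/- replicate 1). Their 8 calls at an unadjusted p became 2, 13 and 22 under the last 3 of these, 5 with quantile normalization and 19 with exon length, and 4 to 13 with each library left out. For the neighbours of the cluster, TPM rescaling moved the median from 0.15 to 0.55 and the calls from 2 to 6, and the calls were 5 with all genes above 0, with exon length and with limma-voom, 4 with robust eBayes, 1 with the filter at 5 FPKM, and 2 to 5 with each library left out. Over all genes, the number with an adjusted p under 0.05 in limma was 0 in the main fit, 45 with the filter at 5 FPKM and 88 with robust eBayes, and stayed 0 with each library left out. The number with an unadjusted p under 0.05 was 1626 in the main fit, 2911 for all genes above 0, 755 with the filter at 5 FPKM, 2648 with exon length and 3303 with limma-voom, and ranged from 809 (without CD37 -/- replicate 2) to 1593 with each library left out. The share of higher genes among them was 66.9%, against 91.4% after TPM rescaling, 47.5% after quantile normalization and 58.4% after upper quartile scaling. The cause of these shifts was not tested.

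The replicate number as a block gave 73 genes at an adjusted p under 0.05. The numbers are not stated to pair the libraries. Over 6761 genes the gap between replicates 1 and 2 in CD37 fl/fl correlated with that in CD37 -/- at -0.04. This cannot decide whether the libraries were paired, since large gaps particular to single libraries could hide a shared part.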
